A study of Mus musculus with 8 samples.

Results

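A set of 10 mouse genes of the IL-6 and IL-10 cytokine families was followed in bone marrow-derived macrophages with and without inducible nitric oxide synthase (iNOS). They were the ligands *Il6*, *Lif*, *Osm*, *Il10* and *Il19* and the receptor genes *Il6ra*, *Il6st*, *Osmr*, *Il10ra* and *Il10rb*. The genes form a named list of family members, and every probe carrying one of their symbols was taken, 13 probes for 10 genes among the 25697 probes and 18138 gene symbols of the array. Of these, 10 probes for 8 genes were detected on enough arrays to be tested.

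Macrophages were grown from bone marrow of 8-week-old female mice for 7 days in GM-CSF (10 ng/ml), a growth factor that supports macrophages and dendritic cells. WT mice were labelled C57bl/6J and wild type, and the others C57bl/6J and iNOS deficient. The methods name the iNOS-deficient strain B6.129P2-Nos2tm1Lau/J, and its allele Nos2tm1Lau is carried in every cell of the animal. Effects of the strain background cannot be told apart from those of the allele. Cells were left unstimulated or received LPS at 200 ng/ml together with IFN-γ at 10 ng/ml for 6 h, which drives M1 activation, the inflammatory state of macrophages. This gave unstimulated and M1 groups of each genotype, 4 in all, with 2 Illumina bead arrays of total RNA per group. Nothing in the labels ties the arrays of a group to separate mice or cultures, so all p-values measure the spread between arrays, which may be technical.

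IL-6, leukaemia inhibitory factor (LIF) and oncostatin M are cytokines that signal through the shared receptor chain gp130, encoded by *Il6st*, together with a partner chain. IL-10 and IL-19 use another class of receptor, in which the IL-10 receptor pairs a ligand-binding chain, encoded by *Il10ra*, with a chain shared by other cytokines, encoded by *Il10rb*. Both families signal through Janus kinases and the transcription factor STAT3. In macrophages, IL-6 is a hallmark of inflammatory activation, whereas IL-10 restrains inflammatory gene expression.

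On each array, 46.0% to 49.3% of all probes were detected, that is, had a detection p-value under 0.05 against the negative control probes. Values below are log2 intensities after scaling of each array, with intensities under 1 set to 1, so that 0 is the lowest value possible. The dimmest detected probe lay between 2.29 and 2.94 on this scale, depending on the array. The median absolute difference between the arrays of a group was 0.16 to 0.19 over all tested probes, and 0.34 to 0.82 between arrays of different groups. *Nos2*, the targeted gene, was undetected on all unstimulated arrays. After activation it read 7.45 and 7.04 in WT, and 7.52 and 7.69 on the iNOS-/- arrays, none of which was lower than a WT M1 array. This difference, 0.36, was uncalled (limma adjusted p = 0.397). Where its probe lies relative to the altered part of the gene was not established, so *Nos2* does not check the genotypes, and iNOS-/- stands here for the arrays so labelled. The 9 macrophage markers on the array, among them *Cd68*, *Cd14* and *Csf1r*, were detected on both arrays of every group. Their summed intensity was 46853 to 47099 in WT unstimulated cells and 54326 to 55024 in WT M1. In iNOS-/- cells it was 38948 to 39732 when unstimulated and 57189 to 59420 in M1. Between the M1 groups 3 of these markers were called higher in iNOS-/- and 4 lower, against 24.2% and 24.3% of all probes tested. Of the lymphocyte markers, 0 of 4 were detected on any array.

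The main comparison set iNOS-/- M1 against WT M1 and asks which family members differ when activated macrophages lack iNOS. *Il6*, *Il10*, *Il10rb*, *Lif* and *Osm* were higher in iNOS-/- M1 and *Il6ra* was lower, while *Il6st* and *Il10ra* did not pass the test. Among the tested probes of the family, 6 of 10 were called, 5 higher and 1 lower, where 48.5% of the 13868 probes tested were called, 24.2% higher and 24.3% lower. A share of 60% among so few probes is near that background. The count includes *Il10*, whose probe entered the test only through iNOS-/- M1, the group where it is high, so that its call follows in part from the filter. The median log2 change of the 10 probes was 0.51, against 0.00 over all probes tested. The count rested on several arrays, falling to 1, *Il6* itself, without WT M1 replicate 1. It was 3 without WT unstimulated replicate 1 or 2, without WT M1 replicate 2, or without iNOS-/- M1 replicate 1 or 2.

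**Figure D1:**
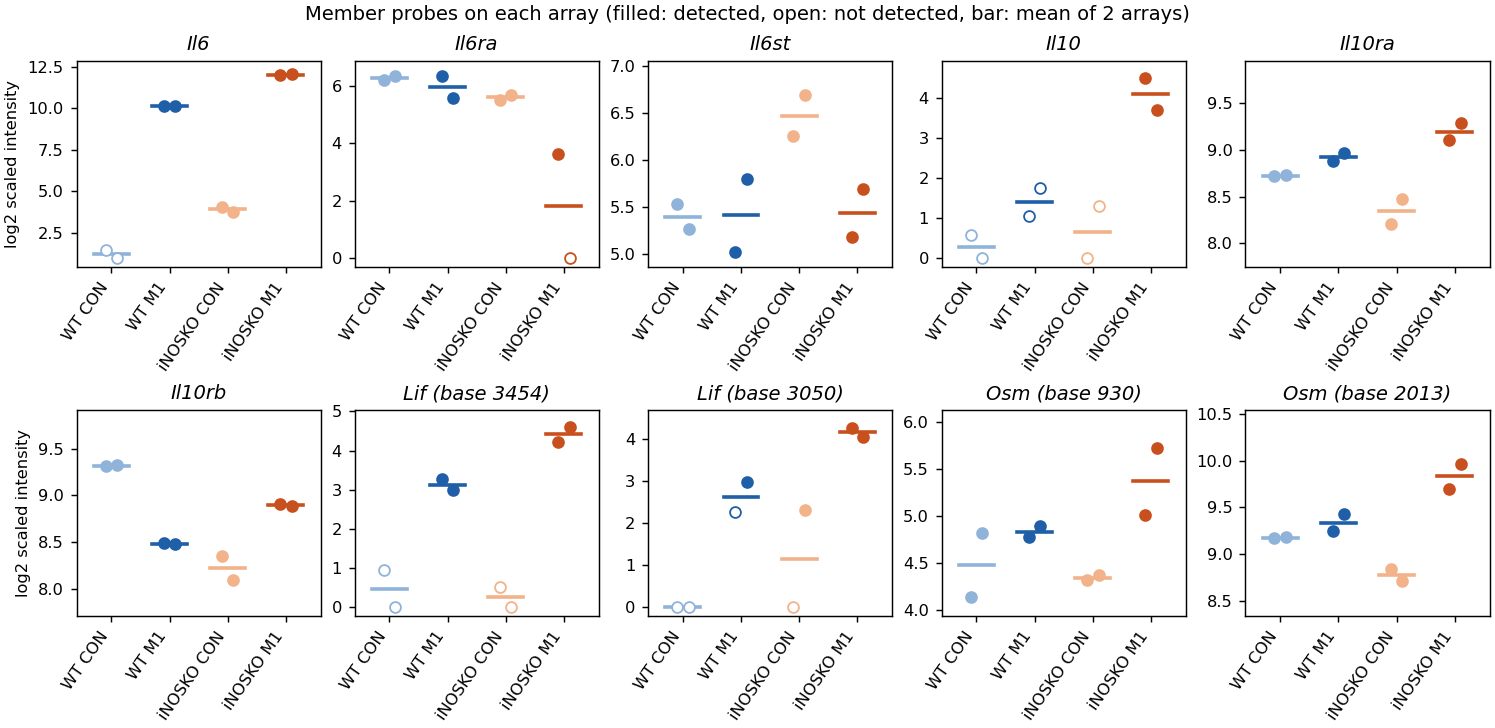
Log2 scaled intensity (vertical axis) of the 10 tested member probes in the 4 groups, 1 point per array, filled where the probe was detected and open where it was not, with a bar at the mean of the 2 arrays. *Il6* climbs to about 12 in iNOS-/- M1, *Il10* is detected in that group alone, *Il6ra* drops there, and *Il10rb* moves in opposite directions in the genotypes. Each panel has its own vertical scale.

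*Il6*, the central ligand of the family, had the largest log2 changes on activation among the tested member probes. Its log2 intensity was 1.45 and 0.98 in WT unstimulated cells, where it was undetected, and 4.07 and 3.75 in iNOS-/- unstimulated cells, where it was detected on both arrays. After activation it reached 10.13 and 10.17 in WT and 11.99 and 12.10 in iNOS-/- cells. The groups therefore ran in the order WT unstimulated, iNOS-/- unstimulated, WT M1, iNOS-/- M1, with no overlap between any neighbours. Between the M1 groups the log2 difference was 1.89 (standard error 0.19, adjusted p = 0.00107 from limma), or 3.71-fold. This was the 1 member call between the M1 groups that held in all 16 alternative settings, with log2 differences from 1.35 to 1.95.

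Activation raised *Il6* at least 201-fold in WT cells, a bound set by the dimmest detected probes because WT unstimulated cells gave no detected level. In iNOS-/- cells, which started from a detected level, the rise was 8.13 on the log2 scale (standard error 0.19, adjusted p = 1.68e-05 from limma), or 280-fold. In unstimulated cells *Il6* was called higher in iNOS-/- than in WT, by 2.69 on the log2 scale (adjusted p = 0.000632 from limma). Since WT was undetected, the bound is at least 2.66-fold, which was not itself tested. With a floor of 16 in place of 1, this unstimulated difference was 0.04 on the log2 scale and was not called (adjusted p = 0.731). The difference between the responses of the genotypes was -0.80 (adjusted p = 0.064) and turned positive with a floor of 16, with neqc or with an intercept in the scaling line, so no direction can be given for it.

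The 250 bases before the start of *Il6* and *Lif*, the ligands called higher in both responses, are shown from the RefSeq table of assembly GRCm38.p6, in lower case with motif matches in capitals. The table held 6 of the 10 members, *Il6*, *Il6ra*, *Il6st*, *Lif*, *Osmr* and *Il19*. The letters searched, on both strands, were GGGANTTTC for NF-kB, TGANTCA for AP-1, TTGCNNAA for C/EBP, TGACGT for the cyclic AMP response element, TTCNNNGAA for STAT factors and GAAANNGAA for interferon-stimulated response elements.
Il6, chr5:30012864-30013113, plus strand: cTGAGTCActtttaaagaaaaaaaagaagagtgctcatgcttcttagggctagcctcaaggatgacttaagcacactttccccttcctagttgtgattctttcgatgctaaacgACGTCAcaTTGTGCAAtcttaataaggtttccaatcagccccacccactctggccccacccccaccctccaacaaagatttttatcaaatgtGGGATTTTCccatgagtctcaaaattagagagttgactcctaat
Lif, chr11:4257318-4257567, plus strand: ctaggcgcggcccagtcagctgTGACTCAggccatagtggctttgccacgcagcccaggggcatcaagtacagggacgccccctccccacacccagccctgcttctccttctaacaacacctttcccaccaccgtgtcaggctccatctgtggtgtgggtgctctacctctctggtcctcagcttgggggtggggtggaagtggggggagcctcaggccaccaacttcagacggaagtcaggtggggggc

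In *Il6* the capitals mark, in order, AP-1 letters beginning 249 bases before the start, the response element at 136 and the C/EBP letters at 128, both on the opposite strand, and the NF-kB letters at 44. In *Lif* they mark AP-1 letters beginning 228 bases before the start. No matches overlapped. Among the 32851 sequences of the same length in the table, NF-kB letters were present in 0.941%, AP-1 letters in 6.75%, C/EBP letters in 9.56% and the response element in 6.47%. The STAT letters, present in 7.02% of all sequences, and the interferon letters, present in 7.13%, were found among these 6 members in *Il19* only. *Il6ra*, *Il6st* and *Osmr* held 0 matches to any of these letters in the window. A match is a description of the letters and no measurement of binding.

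*Lif*, which encodes a gp130 ligand best known for its role in stem cells and implantation, was measured by 3 probes, named by their first base in the transcript. The probe from base 3454 was undetected in unstimulated cells of both genotypes, read 3.28 and 2.98 in WT M1, and read 4.22 and 4.60 in iNOS-/- M1. Both iNOS-/- M1 arrays thus lay above both WT M1 arrays, with all 4 close to the dimmest level that counts as detected. The difference of 1.28 (standard error 0.37, limma adjusted p = 0.0378) was called, but not in 10 of 16 alternative settings, where the adjusted p reached 0.159. With a floor of 16 it was 0.41. The probe from base 3050 read 2.25 and 2.98 in WT M1, the first of them undetected, and 4.26 and 4.05 in iNOS-/- M1, a difference of 1.54 (standard error 0.75, adjusted p = 0.149) that was not called. The probe from base 160 was undetected on all 8 arrays and was not tested.

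Both tested *Lif* probes were called higher on activation in each genotype, but from signals near the detection limit. By the probe from base 3454 the log2 change was 2.66 in WT (adjusted p = 0.0051 from limma) and 4.15 in iNOS-/- cells (adjusted p = 0.000582). Against the dimmest detected probes the rise was at least 1.55-fold and at least 4.31-fold, bounds that were not tested. That probe was detected on M1 arrays alone, so it could be tested only because it was high there. With a floor of 16 its log2 change was 0 in WT and 0.41 in iNOS-/- cells (adjusted p = 0.0581), and with an intercept the WT change was 0.77 (adjusted p = 0.346). By the probe from base 3050 the change in WT was also called (limma adjusted p = 0.047), a call lost in 12 of 16 settings. No bound is given for it, since that probe was undetected on 1 of the 2 WT M1 arrays. In iNOS-/- cells this probe was detected on 1 of the 2 unstimulated arrays, and its change was called (adjusted p = 0.0219), though not in 5 of 16 settings. The size of that change is set by the floor, since the log2 value was 0.16 with a floor of 16, 1.84 without iNOS-/- unstimulated replicate 1 and 4.16 without replicate 2. The difference of response, 1.49 for the probe from base 3454 (adjusted p = 0.0727), was not called.

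*Osm*, whose product oncostatin M is secreted by activated myeloid cells, lies next to *Lif* among the coding genes of chromosome 11, which also carries *Nos2*. Its probe from base 2013 read 9.17 and 9.18 in WT unstimulated cells, 9.24 and 9.43 in WT M1, 8.85 and 8.72 in iNOS-/- unstimulated cells, and 9.70 and 9.96 in iNOS-/- M1. The iNOS-/- cells thus held both the lowest and the highest pair, with the WT groups between them. Between the M1 groups the difference was 0.49 (standard error 0.13, limma adjusted p = 0.0272), or 1.41-fold. The difference was 0.20 with neqc and was then not called (adjusted p = 0.163).

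Activation raised this *Osm* signal by 1.05 in iNOS-/- cells (standard error 0.13, adjusted p = 0.00177 from limma), while the change in WT of 0.16 was not called (adjusted p = 0.389). The responses themselves differed by 0.89 (standard error 0.18, adjusted p = 0.0141). Quantile normalization brought that to 0.48, no longer called (adjusted p = 0.0725). The dimmer probe from base 930 ranged from 4.13 to 4.89 in the other 3 groups and read 5.01 and 5.73 in iNOS-/- M1. It rose by 1.03 in iNOS-/- cells (standard error 0.32, adjusted p = 0.0423), a call lost in 8 of 17 settings, among them the fit without iNOS-/- M1 replicate 2, where it was 0.67 (adjusted p = 0.15). Its difference between the M1 groups of 0.54 (adjusted p = 0.216) was not called.

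Between the M1 groups the receptor for IL-6 differed in the opposite direction from its ligand. *Il6ra*, which encodes the chain that binds IL-6, had scaled intensities of 73.7 and 81.2 in WT unstimulated cells, 81.2 and 47.8 in WT M1, and 45.7 and 51.4 in iNOS-/- unstimulated cells. In iNOS-/- M1 it was 12.3 on replicate 1, which was detected, and -4.25 on replicate 2, which was not. The other 3 groups were thus detected throughout, and both iNOS-/- M1 arrays lay below all others. The log2 difference between the M1 groups, with the undetected value set to the floor, was -4.15 (standard error 1.14, adjusted p = 0.0313 from limma). Its size depends on that floor and on 1 array, since it ran from -5.96 to -1.75 over the 16 alternatives and was -2.34 without iNOS-/- M1 replicate 2. It was not called in 8 of them.

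Within iNOS-/- cells *Il6ra* fell by 3.79 on activation (standard error 1.14, adjusted p = 0.0401 from limma), again not called in 8 of 16 settings. In WT cells the change was -0.31 (adjusted p = 0.859) and the arrays of the groups overlapped. The difference between these responses of -3.48 (standard error 1.61, adjusted p = 0.142) was not called. It was called in 4 of 15 alternatives, at -1.16 with neqc (adjusted p = 0.0093), with an intensity trend (adjusted p = 0.0209), at -5.29 without iNOS-/- M1 replicate 1 (adjusted p = 0.00356) and at -1.67 without replicate 2 (adjusted p = 0.0473). *Adam17*, which encodes the protease that sheds the IL-6 receptor, was among the regulators described further on. A link between *Adam17* and the *Il6ra* values was not tested.

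*Il6st*, encoding gp130, read 5.53 and 5.26 in WT unstimulated cells, 5.02 and 5.80 in WT M1, 6.25 and 6.69 in iNOS-/- unstimulated cells, and 5.18 and 5.69 in iNOS-/- M1. The iNOS-/- unstimulated pair lay above all other arrays, and the other 3 groups overlapped. The M1 groups differed by 0.02 (standard error 0.33, adjusted p = 0.963 from limma). On activation *Il6st* fell by 1.04 in iNOS-/- cells (standard error 0.33, adjusted p = 0.0491), a call lost in 11 of 17 settings. The difference between the unstimulated groups, 1.08 (adjusted p = 0.0617), was not called, though it was in 6 settings. *Osmr*, the oncostatin M partner chain, was undetected on all 8 arrays, with scaled intensities from -0.73 to 5.46, and was not tested.

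*Il10*, the anti-inflammatory ligand, was detected in iNOS-/- M1 alone. Its log2 intensity there was 4.50 and 3.70, against 1.06 and 1.75 in WT M1, 0.58 and 0.00 in WT unstimulated cells, and 0.00 and 1.31 in iNOS-/- unstimulated cells. Because it passed the detection filter only through iNOS-/- M1, it had to be higher there to be tested at all. *Il10* was called higher in iNOS-/- M1 than in WT M1, by 2.69 on the log2 scale (adjusted p = 0.0119 from limma). Against iNOS-/- unstimulated cells it was called higher by 3.44 (adjusted p = 0.00452). Both sizes rest on undetected values. The bounds, themselves not tested, were at least 2.52-fold and at least 3.47-fold. With a floor of 16 the log2 difference between the M1 groups was 0.25 and was not called (adjusted p = 0.322). Without WT M1 replicate 1 or iNOS-/- M1 replicate 1 it was not called either, at 2.35 and 2.29.

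The difference between the *Il10* responses of the genotypes was uncalled (limma adjusted p = 0.0635). Its size is set by the floor, since 3 of the 4 groups had no detected level, and it ran from 0.25 to 4.24 over the alternatives. It was called with neqc (adjusted p = 0.00726), with an intercept (adjusted p = 0.0208) and without iNOS-/- unstimulated replicate 2 (adjusted p = 0.0336). *Il19*, a coding neighbour of *Il10* on chromosome 1, was undetected on all 8 arrays and was not tested. Its scaled intensity was 2.78 and 2.72 in WT M1 and 3.13 and 7.29 in iNOS-/- M1, with a detection p-value of 0.0551 for the last.

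*Il10rb*, the shared chain of the IL-10 receptor, responded to activation in opposite directions. It read 9.31 and 9.33 in WT unstimulated cells and 8.49 and 8.48 in WT M1. In iNOS-/- cells it read 8.36 and 8.10 when unstimulated and 8.91 and 8.88 in M1. The arrays of no 2 groups overlapped, and from the highest the groups ran WT unstimulated, iNOS-/- M1, WT M1 and iNOS-/- unstimulated. *Il10rb* fell by 0.83 in WT (standard error 0.11, adjusted p = 0.00414 from limma) and rose by 0.67 in iNOS-/- cells (standard error 0.11, adjusted p = 0.00488). The responses differed by 1.50 (standard error 0.15, adjusted p = 0.00168), which was called in all 16 alternatives, with values from 1.24 to 1.63.

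In unstimulated cells *Il10rb* was lower in iNOS-/- than in WT by a log2 difference of -1.09 (standard error 0.11, limma adjusted p = 0.00181), called in all 17 alternatives. In M1 cells the difference was of the opposite sign, 0.41 (standard error 0.11, adjusted p = 0.0282), or 1.33-fold. The latter was not called in 8 of 17 settings, among them neqc, where it was 0.25 (adjusted p = 0.0733).

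*Il10ra*, the ligand-binding chain, was raised by activation in iNOS-/- cells. It read 8.71 and 8.73 in WT unstimulated cells, 8.87 and 8.97 in WT M1, 8.21 and 8.47 in iNOS-/- unstimulated cells, and 9.10 and 9.28 in iNOS-/- M1. The rise was 0.85 in iNOS-/- cells (standard error 0.12, adjusted p = 0.00323 from limma), while the change of 0.20 in WT was not called (adjusted p = 0.268). The responses differed by 0.65 (standard error 0.18, adjusted p = 0.0337), but this was not called in 10 of 16 settings, among them neqc, at 0.35 (adjusted p = 0.0905), and quantile normalization, at 0.36 (adjusted p = 0.149). Between the M1 groups the difference of 0.27 (adjusted p = 0.129) did not pass the test, although the pairs of arrays did not overlap.

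**Figure D2:**
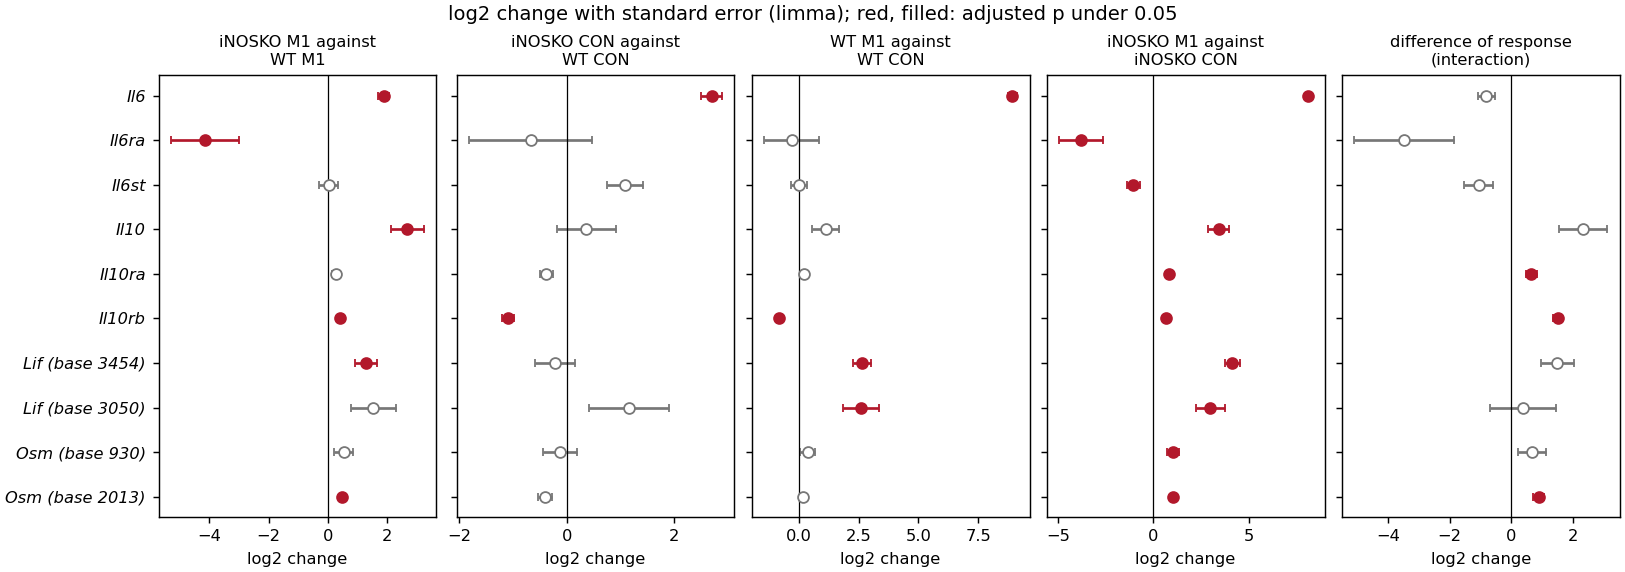
Log2 change (horizontal axis) with its limma standard error for the 10 tested member probes in 5 comparisons, 1 panel each, red and filled where the adjusted p is under 0.05. All 10 probes are called in the response of iNOS-/- cells, 4 in that of WT cells, and 3 in the difference between the responses. Each panel has its own horizontal scale.

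Across the family, activation in iNOS-/- cells was called for 10 of 10 probes, 8 higher and 2 lower (*Il6ra* and *Il6st*), where 50% of all probes tested were called, 26.2% higher and 23.8% lower. In WT cells 4 of 10 were called, *Il6* and both *Lif* probes higher and *Il10rb* lower, against 35.1% of all probes, 20.2% higher and 14.9% lower. Among all called probes, the part called higher depends on the scaling, being 57.6% in WT and 52.4% in iNOS-/- cells but 44.4% and 43.3% with neqc and 47.4% and 41.9% with quantile normalization. These 2 counts do not compare the genotypes. The test of that difference called 3 of 10 probes, *Il10ra*, *Il10rb* and *Osm* from base 2013, all more positive in iNOS-/- cells, against 41.9% of all probes, 20.8% more positive and 21.1% more negative. The count of 10 includes *Il10* and the *Lif* probe from base 3454, which passed the filter only through groups where they are high. It was 5 with a floor of 16, and 6 without a detection filter or with the compared groups alone. Between the unstimulated groups 2 of 10 were called, *Il6* higher and *Il10rb* lower in iNOS-/-, against 32.1% of all probes, 15.9% higher and 16.2% lower. The comparisons share arrays, so their values for a probe are not independent of each other.

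**Figure D3:**
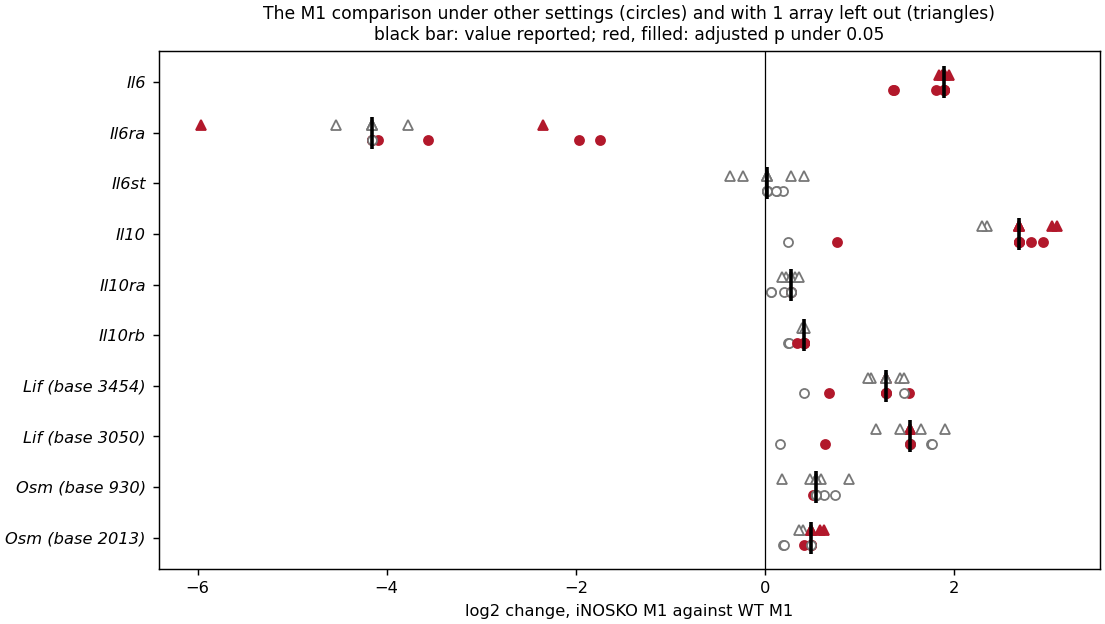
Log2 difference between iNOS-/- M1 and WT M1 (horizontal axis) for the 10 tested member probes, with the reported value as a black bar, other settings as circles and fits without 1 array as triangles, red and filled where the adjusted p is under 0.05. *Il6* stays between 1.35 and 1.95 and is called throughout, whereas *Il6ra* runs from -5.96 to -1.75.

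The probes of other genes nearest in pattern over the 8 arrays were found by the root mean square difference of mean-centred log2 profiles among 12282 to 12284 probes detected on at least 4 arrays. For *Il6* they were *Tnfsf15*, *Il12a* and *Cxcl10*, at 0.42 to 0.59 on a profile that spans 11.1. *Osm* was closest to *Tmbim6*, *Abcc5* and *Ndel1*, at 0.06 to 0.08 on a span of 1.25. *Il6ra* was closest to *Ptpn7*, *Matk* and *Abcd2*, at 0.36 to 0.47.

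Other ligands and receptors of the 2 families were largely dim. Of 23 listed, 19 were on the array and 9 were tested, of which 1 was higher and 2 were lower in iNOS-/- M1 than in WT M1, where 24.2% of all probes were higher and 24.3% lower. With neqc 3 were higher, and an intercept in the scaling line made it 4. *Ebi3*, the subunit that IL-27 shares with IL-35, read 9.49 ± 0.05 in WT M1 against 11.14 ± 0.09 in iNOS-/- M1 (SD of 2 arrays), a log2 difference of 1.65 (adjusted p = 0.000276 from limma). *Il27ra*, the IL-27 receptor chain that pairs with gp130, differed by -1.34 (adjusted p = 0.00057). *Il11ra1*, the IL-11 receptor chain, differed by -0.64 (adjusted p = 0.00362), and by -1.12 between the unstimulated groups (limma adjusted p = 0.00101). The median of the 9 was 0.12, against 0.00 over all probes.

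Among the signalling genes downstream of both families, 12 of 13 JAK-STAT genes were tested, and 9 were higher and 0 lower in iNOS-/- M1, with a median log2 difference of 0.69, against 24.2% of all probes higher and 24.3% lower. With neqc or quantile normalization 6 were higher. Between the unstimulated groups 7 were higher and 2 lower in iNOS-/- cells, with a median of 0.64, against 15.9% and 16.2% of all probes. The difference of response was called more positive for 4 and more negative for 3, with a median of 0.09. Of all probes, 20.8% were called more positive and 21.1% more negative. *Stat3* was 9.81 in WT M1 and 11.39 in iNOS-/- M1 by its brightest probe, a difference of 1.58 (standard error 0.12, limma adjusted p = 0.000458), and its other 2 probes gave 1.67 and 1.20. *Socs3*, the feedback inhibitor of gp130 signalling, differed by 1.23 (adjusted p = 0.000309), and by 0.71 between the unstimulated groups (limma adjusted p = 0.00234). The *Socs3* difference of response was 0.52 (limma adjusted p = 0.0151). With neqc it was -0.017 and with quantile normalization -0.049, called in neither.

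*Jak1*, a kinase used by both receptor families, fell by 0.67 on activation in WT (adjusted p = 0.0498 from limma) and rose by 0.84 in iNOS-/- cells (adjusted p = 0.0169). Its responses differed by 1.50 (standard error 0.28, adjusted p = 0.00988). With an intercept in the scaling line the WT change was not called (adjusted p = 0.0511). *Tyk2*, the kinase bound by the IL-10 receptor's shared chain, was higher in iNOS-/- M1 by 0.59 (adjusted p = 0.00435), but with neqc or quantile normalization it was not called (0.22 in both). The other *Tyk2* probes gave 0.65, called, and 0.61, not called (limma adjusted p = 0.0646). Between the unstimulated groups *Tyk2* was higher in iNOS-/- cells by 0.66 in its brightest probe. The others gave 1.37 and 1.11, and all were called. *Cish*, a suppressor of cytokine signalling, was higher in iNOS-/- M1 by 0.68 (adjusted p = 0.00182), but not called with neqc or quantile normalization (0.18 in both). In unstimulated cells *Cish* was higher in iNOS-/- by 2.19 (limma adjusted p = 9.91e-05). Its responses differed by -1.50 (adjusted p = 0.000744).

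Of 12 tested genes linked to STAT3 as its targets or partners, 6 were higher and 1 was lower in iNOS-/- M1, with a median of 0.58, beside 24.2% and 24.3% of all probes. Between the unstimulated groups 4 were higher and 4 lower, beside 15.9% and 16.2% of all probes. With neqc or quantile normalization 3 were lower in M1. *Il1rn*, the IL-1 receptor antagonist induced by IL-10, read 9.99 ± 0.09 in WT M1 against 12.25 ± 0.09 in iNOS-/- M1 (SD of 2 arrays), a difference of 2.26 (adjusted p = 0.000132 from limma). *Saa3*, an acute phase gene, differed by 1.60 (adjusted p = 0.000406). *Il4ra*, the IL-4 receptor chain that IL-6 and IL-10 can induce, differed by 1.28 (adjusted p = 0.0406). In unstimulated cells *Il4ra* was higher in iNOS-/- than in WT by a log2 difference of 2.10 (limma adjusted p = 0.0124). WT gave no detected level there, so the bound is at least 2.26-fold, which was not itself tested. With an intercept in the scaling line that difference was not called (limma adjusted p = 0.0618). The *Il4ra* difference of response of -0.82 was not called (adjusted p = 0.278). It turned positive with neqc (0.13) or an intercept (0.55). *Fos*, an immediate early gene, was the 1 lower gene, with a difference of -2.91 (adjusted p = 0.00013).

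Among the regulators of IL-6 or IL-10 production and of receptor shedding, 13 of 15 were tested, and 9 were higher and 0 lower in iNOS-/- M1, with a median of 0.99, beside the same 24.2% and 24.3% of all probes. With neqc 3 were lower, among them *Atf3*. Between the unstimulated groups 2 were higher and 6 lower in iNOS-/- cells, with a median of -0.24, beside 15.9% and 16.2% of all probes. Among these 6 were *Zc3h12a* (-0.51, adjusted p = 0.0367), *Map3k8* (-0.54, adjusted p = 0.0125) and *Atf3* (-1.92, adjusted p = 0.00052). *Zc3h12a*, whose product degrades *Il6* mRNA, was 7.19 in WT M1 and 9.29 in iNOS-/- M1, a difference between the M1 groups of 2.10 (standard error 0.13, limma adjusted p = 0.000314). *Nfkbiz*, a nuclear cofactor needed for *Il6* transcription, differed by 1.61 (adjusted p = 0.000295). *Map3k8*, a kinase upstream of ERK, differed by 0.99 (adjusted p = 0.00105). *Atf3*, a repressor of *Il6*, differed by -0.21 (adjusted p = 0.227), and its responses differed by 1.71 (adjusted p = 0.00177). *Adam17* differed by 0.75 (adjusted p = 0.00253).

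**Figure D4:**
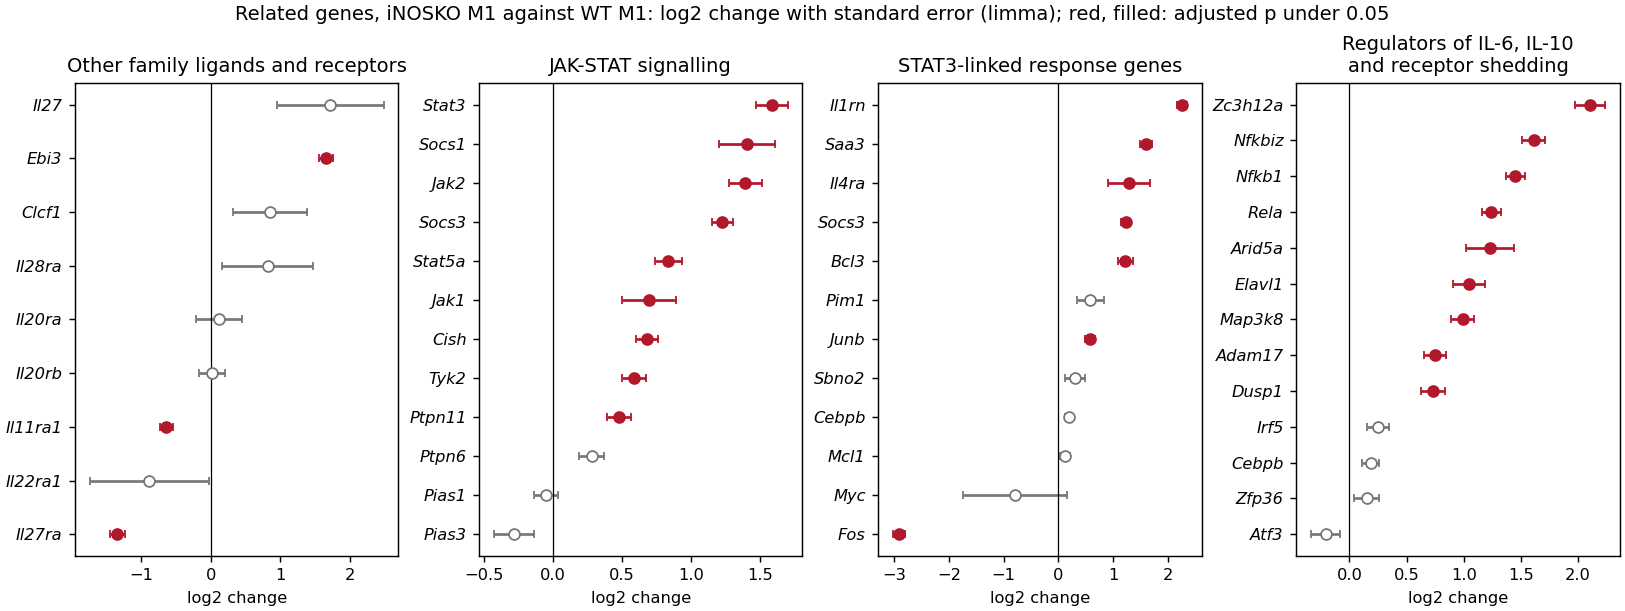
Log2 difference between iNOS-/- M1 and WT M1 (horizontal axis) with its limma standard error for the tested genes of 4 related lists, each gene by its brightest probe, red and filled where the adjusted p is under 0.05. In the JAK-STAT list 9 of 12 genes are called and all are higher, among the regulators 9 of 13, and *Fos* is the 1 lower gene in the STAT3-linked list.

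Markers of other cell types moved with the same groups. The summed intensity of 8 dendritic cell markers was 406 to 444 in WT unstimulated cells, 6202 to 6352 in WT M1, 4322 to 4444 in iNOS-/- unstimulated cells and 19803 to 20758 in iNOS-/- M1. Of these markers, 7 were detected on both arrays of every group but WT unstimulated, and *Flt3* was detected on no array. The summed intensity of 7 granulocyte markers was 1120 to 1150, 1376 to 1493, 1655 to 1716 and 3928 to 4030 in the same order, with *Mpo* detected on no array. Between the M1 groups 5 of 7 tested dendritic cell markers and 3 of 6 granulocyte markers were higher, and 0 of either list were lower, where 24.2% of all probes were higher and 24.3% lower. The summed intensity of 4 mast cell and basophil markers was 8.36 to 9.09 in WT unstimulated cells, 28.6 to 36.3 in WT M1, 107 to 110.1 in iNOS-/- unstimulated cells and 129.7 to 139.8 in iNOS-/- M1, with *Mcpt8* and *Ms4a2* detected on no array. That of 6 stromal markers was 2.20 to 2.88, 10.5 to 12.9, 4.39 to 7.45 and 24.5 to 34.1 in the same order, and 4 of them were detected on no array. From the lowest, the 4 groups ran in the same order by dendritic cell markers as by *Il6*. The part of these markers in the differences of *Il6*, *Il10*, *Il6ra* and the JAK-STAT genes was not tested. In bulk RNA, fewer cells of a type and less RNA per cell cannot be told apart.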

How the data were processed

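The authors deposited intensities, as means over the beads of a probe, without normalization between arrays, together with detection p-values, exported from GenomeStudio. The deposited header names no background subtraction, yet undetected probes lie around 0, so none was subtracted here. The labels name the MouseRef-8 array in one place and the MouseWG-8 array in another. The methods name a background subtraction, rank-invariant scaling, negative values set to 1, log2 and limma (version 3.14.4 in the submitters' notes) with Benjamini-Hochberg adjustment. The value columns left 0 without a sample.

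From the intensities, arrays were brought to the scale of their mean by robust regression without an intercept (MASS 7.3.60.0.1), over probes whose rank moved by less than 0.05 of itself and lay between 0.5 and 0.9 of all probes. Any value under 1, whether negative or positive, was replaced by 1 before log2 transformation. Probes with detection p under 0.05 on at least 2 arrays were tested, 13868 in all. The test was a one-way model of the 4 groups over 8 arrays in limma 3.58.1 (R 4.3.3). It was run on simulated data whose changed probes were chosen for a mean intensity well above the floor. That run cannot check calls near the floor. A change was called at an adjusted p under 0.05. Where a group had a probe detected on neither array, a bound is given against the higher of the probe's value and the dimmest detected probe on each array. None is given for the *Lif* probe from base 3050, which was undetected on 1 WT M1 array. The bounds were not tested, and the p-values belong to the log2 changes. The number of arrays limits the precision.

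The members and gene lists were chosen with earlier results of these data known. The text names every member probe, *Nos2*, up to 4 genes per related list with the largest called change between the M1 groups or between responses, and *Stat3*, *Socs3*, *Jak1*, *Tyk2* and *Il4ra*. *Adam17* was named after its values were seen. A further listed gene is not reported here. A gene of a related list is given by its brightest probe. Sequences and gene order come from RefSeq tables of GRCm38.p6. The annotation build of the array is not given in the sources used here. Alternatives were neqc, quantile normalization, an intercept in the scaling line, a floor of 16, no detection filter, detection on all 8 arrays, an intensity trend, the replicate number as a block, the compared groups alone, a 2-fold minimum and each array left out in turn.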

Additional observations from a re-analysis of the deposited data

Results flagged for a closer look

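The response to activation differed between the genotypes, by the test of the difference itself in limma, for 3 member probes. For *Il10rb* the difference of response was 1.50 on the log2 scale (standard error 0.15, adjusted p = 0.00168), with a fall on both WT M1 arrays and a rise on both iNOS-/- M1 arrays against the unstimulated arrays of the same genotype. For the *Osm* probe from base 2013 it was 0.89 (standard error 0.18, adjusted p = 0.0141). For *Il10ra* it was 0.65 (standard error 0.18, adjusted p = 0.0337), but 0.35 with neqc (adjusted p = 0.0905) and 0.36 with quantile normalization (adjusted p = 0.149), and it was not called in 10 of 16 settings. In each case iNOS-/- cells had the more positive response, and 41.9% of all probes tested differed in their response at the same threshold.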

How the results depend on the processing

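Over the alternatives, the 815 values of single member probes kept their direction and side of the threshold in 665 cases, lost a call in 96, gained one in 34 and changed sign in 20. With 2 arrays per group and several members near the dimmest detected level, few calls are firm. Among member probes, the called counts moved by over 1.5 times as follows. With a floor of 16 they were 1 between the unstimulated groups, 2 in the WT response and 5 in the iNOS-/- response. Over probes detected on all 8 arrays, which leaves out *Il6*, *Il6ra*, *Il10* and *Lif*, 5 member probes were tested. Of these 5, 2 were called between the M1 groups, 4 between the unstimulated groups, 1 in the WT response and 5 in the iNOS-/- response. Among the 9687 probes tested there, 6240, 4586, 5043 and 6307 were called in the same order. An intensity trend gave 5 between the unstimulated groups and 6 in the difference of response, and the compared groups alone gave 4 between the unstimulated groups and 6 in the iNOS-/- response. Neqc gave 8 in the difference of response, an intercept gave 2 in the WT response, no detection filter gave 6 in the iNOS-/- response, and a 2-fold minimum gave 1 in the difference of response. With 1 array left out the member count between the M1 groups was 1 to 5.

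Over all probes, a 2-fold minimum left 3455 between the M1 groups, 1966 between the unstimulated groups, 2092 in the WT response, 3986 in the iNOS-/- response and 3873 in the difference of response. With 1 array left out the counts were 2697 to 4419 between the unstimulated groups and 3093 to 4861 in the WT response. An intercept moved the median of all probes from 0.00 to 0.20 between the M1 groups and from 0.01 to 0.29 in the difference of response, and quantile normalization moved it from 0.04 to -0.13 in the iNOS-/- response.

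The sign of the *Il6* difference of response changed with neqc (0.72), an intercept (0.55) and a floor of 16 (1.86). It was called positive with neqc (limma adjusted p = 0.00146) and a floor of 16 (adjusted p = 0.000155). It was called negative with quantile normalization (-1.17, adjusted p = 0.0172) and an intensity trend (-0.80, adjusted p = 0.0105), so the calls conflict. The *Il6st* difference between the M1 groups ran from -0.37 to 0.41 with 1 array left out, below 0 without WT M1 replicate 1 (-0.37) or iNOS-/- M1 replicate 2 (-0.23). Its WT response became -0.11 with neqc, -0.16 with quantile normalization, -0.051 with an intercept, and -0.38 to 0.40 with 1 array left out, below 0 without WT unstimulated replicate 2 (-0.12) or WT M1 replicate 2 (-0.38). Between the unstimulated groups *Il10* became -0.029 with neqc and -1.43 with an intercept, and ran from -0.29, without iNOS-/- unstimulated replicate 2, to 1.02 with 1 array left out. With an intercept the WT response of *Il10* became -0.88 and the unstimulated difference of *Lif* from base 3050 became -0.10. With 1 array left out, the difference of response of that probe ran from -0.77, without iNOS-/- unstimulated replicate 1, to 1.54. The unstimulated difference of *Lif* from base 3454 ran from -0.69 to 0.26, above 0 without WT unstimulated replicate 1 or iNOS-/- unstimulated replicate 2 (0.045). That of *Osm* from base 930 ran from -0.48 to 0.21, the latter without WT unstimulated replicate 2, and the WT response of *Il6ra* from -0.69 to 0.071, the latter without WT M1 replicate 2. None of these was called in the reported fit, and the cause was not tested.

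Replicate numbers did not pair the arrays, with correlations of deviations between groups from -0.037 to 0.025. With the replicate number as a block, member counts were 6 between the M1 groups, 2 between the unstimulated groups, 3 in the WT response, 10 in the iNOS-/- response and 3 in the difference of response, and over all probes 6271 were called between the M1 groups. The block for slides was not run, since no slides are named, and the compared groups alone cannot give the difference of response.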
